A study of Mus musculus with 9 samples.

Results

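The 28 genes described here encode the enzymes of cholesterol synthesis, the SREBP regulators that control them, a sterol carrier, and the fatty acid synthesis and desaturation enzymes that the same regulators drive. They were chosen by gene symbol, matched to the Ensembl identifiers of the count table, and all 28 were found among its 53465 genes. By role they comprise 7 genes of the mevalonate arm, 11 of the steps from squalene synthesis to cholesterol, 5 regulators, 1 carrier and 4 fatty acid genes. The 11, called the squalene-to-cholesterol steps, include Fdft1, which makes squalene. The list does not hold every gene of the pathway.

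Cells make cholesterol from acetyl-CoA, which is built up through mevalonate into farnesyl pyrophosphate, joined into squalene, closed into a sterol ring and then trimmed step by step to cholesterol. The sterol regulatory element-binding proteins (SREBPs, encoded by Srebf1 and Srebf2) are transcription factors held in the membrane of the endoplasmic reticulum. When membrane cholesterol is low, SCAP carries them to the Golgi, where they are cut and released to the nucleus, and when it is high, the INSIG proteins keep them in place. Macrophages both make sterol and take it up from the cells and lipoproteins they engulf.

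RNA was sequenced from mouse macrophages in 3 groups of 3 libraries. Lining macrophages (libraries A, B and C) were CD45+CD11b+F4/80+ GFP+ cells and interstitial macrophages (D, E and F) were CD45+CD11b+F4/80+ GFP- cells, both sorted from hind paw synovial tissue of Cx3cr1-GFP mice, in which the fractalkine receptor gene drives green fluorescent protein. Bone marrow-derived macrophages (BMDM, libraries G, H and I) came from C57BL/6 mice and were cultured with MCSF-conditioned medium for 5 days. No group carried a treatment or a disease model, and the labels used here give no age. The GFP gate follows Cx3cr1 transcription, so the sorted groups are defined by that gene, and BMDM differ from them in tissue, strain, sorting and culture together, which cannot be told apart. Nothing in the labels says that the libraries of a group are separate animals, so p-values measure the spread between these libraries, which may be technical.

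Libraries held 2194920 to 22499823 counts, with the fewest in A, D and C and the most in the BMDM. Levels are given as CPM, counts brought to the same library size with TMM factors, and 3 counts corresponded to 0.273 to 1.45 CPM in the sorted libraries and to 0.130 to 0.149 CPM in BMDM. All 8 macrophage and sort markers were detected in every library, and Cx3cr1 itself stood at 663 to 775 CPM in lining, 2.66 to 7.86 CPM in interstitial and 236 to 311 CPM in BMDM. In bulk libraries, fewer cells of a type and less RNA per cell cannot be told apart. A gene was called where the adjusted p of edgeR's quasi-likelihood test, Benjamini-Hochberg over the 12610 genes tested, was under 0.05, and higher, lower, rose and fell are said of called genes. All 28 genes passed the filter on low counts.

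The sequences just upstream of the transcription starts are where SREBPs and their partners NF-Y and Sp1 are known to bind, and windows are shown for the genes whose lower level against BMDM carried the strongest tests in both sorted groups. RefSeq (GRCm38.p6) gave 30 windows of 250 bases before a start for 22 of the 28 genes. Motifs were searched on both strands as TCACNCCAC (sterol regulatory element core), CACNCCAC (a shorter form that every TCACNCCAC also contains), CCAAT (NF-Y box) and GGGCGG (Sp1 box). Each line below runs 5′ to 3′ on the gene's strand and ends at the base before the start, with matches on either strand in capitals; adjoining or overlapping matches form a single run of capitals. The windows are Fasn at chr11:120824548-120824797 (minus strand), Acat2 at chr17:12960726-12960975 (minus), Cyp51 at chr5:4104698-4104947 (minus), Lss at chr10:76531355-76531604 (plus) and Msmo1 at chr8:64733579-64733828 (minus). Hmgcs1 at chr13:119690101-119690350 (plus) was added after its motifs had been seen.
Fasn: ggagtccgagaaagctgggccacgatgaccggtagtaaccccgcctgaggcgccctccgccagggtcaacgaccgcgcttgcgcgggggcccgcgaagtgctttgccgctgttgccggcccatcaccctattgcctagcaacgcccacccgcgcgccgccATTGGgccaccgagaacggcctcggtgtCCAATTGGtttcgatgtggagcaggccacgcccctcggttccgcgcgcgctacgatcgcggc
Acat2: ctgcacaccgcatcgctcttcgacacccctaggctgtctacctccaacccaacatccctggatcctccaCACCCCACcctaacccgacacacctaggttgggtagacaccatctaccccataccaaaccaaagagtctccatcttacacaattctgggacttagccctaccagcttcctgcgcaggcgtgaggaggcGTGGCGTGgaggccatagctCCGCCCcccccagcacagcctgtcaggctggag
Cyp51: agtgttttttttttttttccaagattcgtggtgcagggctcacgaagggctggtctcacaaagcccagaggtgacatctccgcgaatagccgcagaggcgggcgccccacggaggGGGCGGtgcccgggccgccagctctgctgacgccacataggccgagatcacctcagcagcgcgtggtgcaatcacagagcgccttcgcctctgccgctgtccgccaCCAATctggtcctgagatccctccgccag
Lss: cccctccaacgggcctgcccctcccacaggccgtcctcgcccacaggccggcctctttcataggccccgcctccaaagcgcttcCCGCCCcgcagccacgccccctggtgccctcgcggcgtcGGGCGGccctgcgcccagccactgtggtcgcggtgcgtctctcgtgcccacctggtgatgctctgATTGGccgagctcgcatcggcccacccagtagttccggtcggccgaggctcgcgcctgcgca
Msmo1: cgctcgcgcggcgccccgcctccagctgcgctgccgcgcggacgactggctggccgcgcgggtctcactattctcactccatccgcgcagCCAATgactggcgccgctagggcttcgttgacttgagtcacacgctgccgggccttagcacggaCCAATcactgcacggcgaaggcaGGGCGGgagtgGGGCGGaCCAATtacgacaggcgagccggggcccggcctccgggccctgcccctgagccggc
Hmgcs1: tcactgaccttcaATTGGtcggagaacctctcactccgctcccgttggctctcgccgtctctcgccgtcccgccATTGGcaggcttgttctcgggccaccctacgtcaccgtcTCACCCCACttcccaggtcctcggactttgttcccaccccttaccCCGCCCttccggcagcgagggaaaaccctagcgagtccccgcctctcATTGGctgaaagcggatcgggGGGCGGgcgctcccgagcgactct

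TCACNCCAC was found in 1 of the 30 windows, that of Hmgcs1, 137 bases before the start, and in 1.05% of the 32851 windows of the RefSeq table. CACNCCAC was found in 3 windows, those of Acat2, Hmgcs1 and Insig1, and in 5.29% of all windows. CCAAT was found in 20 of the 30 windows, belonging to 19 of the 22 genes, against 33.8% of all windows. GGGCGG was found in 22 of the 30 windows, also belonging to 19 genes, against 32.7% of all windows. Within the printed windows, Fasn and Msmo1 each had 3 CCAAT matches, Hmgcs1 had 3, Cyp51 and Lss had 1 each, and Acat2 had none. A sixth gene that met the choice, Acaca, is not printed, because its only window lies 65766 bases inside the counted gene and held none of the motifs. These matches describe letters and do not show binding.

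Per kilobase of counted exon, the regulators Srebf2 and Insig1 were among the most abundant of the 28 transcripts. Srebf2 was the highest in lining cells, at 39.8 ± 3.72 CPM per kilobase (SD, n = 3), ahead of Insig1 at 31.3 ± 7.40, Ebp at 23.4 ± 6.63, Scd2 at 20.4 ± 7.75 and Srebf1 at 16.8 ± 0.255, and the SDs of neighbours in this order overlapped. Interstitial cells also had Srebf2 at the top, at 33.8 ± 2.21 CPM per kilobase, then Insig1 at 20.2 ± 6.18, Ebp at 20.0 ± 3.76, Srebf1 at 15.7 ± 4.003 and Hmgcs1 at 13.7 ± 4.35, of which Srebf2 alone stood clear of its neighbour's SD. In BMDM the order opened with Scd2 at 72.7 ± 14.7 CPM per kilobase, then Srebf2 at 46.5 ± 3.02, Fasn at 33.8 ± 1.07, Insig1 at 32.1 ± 1.97 and Mvd at 25.7 ± 1.93, and only Fasn and Insig1 overlapped. The lowest were Scd1 in lining at 0.687 ± 0.421, Fdps in interstitial at 0.195 ± 0.337 and Tm7sf2 in BMDM at 2.19 ± 0.0541 CPM per kilobase. The table's exon length joins every transcript of a gene, so it can exceed the length of the RNA that was present.

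**Figure D1:**
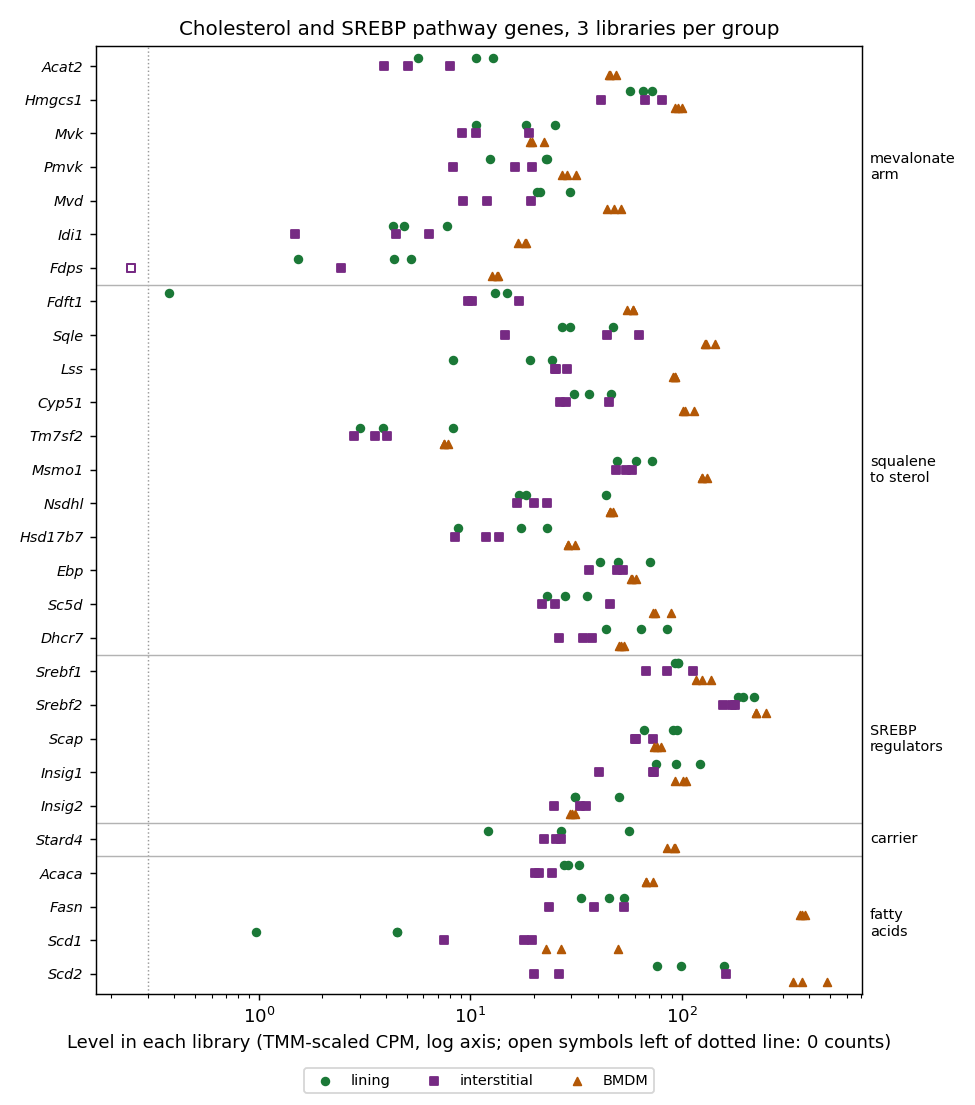
Levels of the 28 genes in each of the 9 libraries, in TMM-scaled CPM on a log axis, with genes down the page in the order of their role; counts of 0 are open symbols left of the dotted line. BMDM libraries sit to the right of both sorted groups for most enzymes and close to them for Srebf2, Scap and Insig2.

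Summed over the 28 genes, lining libraries A, B and C held 1243, 1200 and 1250 CPM, interstitial libraries D, E and F held 837, 954 and 1237 CPM, and BMDM libraries G, H and I held 2443, 2584 and 2721 CPM. Both sorted groups lay wholly below BMDM, and lining and interstitial overlapped through library F alone. The libraries of a sorted group also differed more among themselves. The coefficient of variation over the 28 genes had a median of 31.2% in lining, 30.7% in interstitial and 4.43% in BMDM, beside counts per library that were lower in the sorted groups.

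Against BMDM, many of the enzymes of cholesterol and fatty acid synthesis were lower in joint macrophages, and none of the 28 genes was higher. Of all tested genes, 23.1% were higher in lining and 23.4% in interstitial. In lining cells 14 of 28 were lower, where 20.5% of all tested genes were lower; the median log2 fold change was -1.05 over the 28 genes and 0.00 over all genes. In interstitial cells 22 of 28 were lower, where 21.3% of all tested genes were lower; the median was -1.29, against -0.01 over all genes. The count of 0 higher genes held at an unadjusted p under 0.05 in edgeR, in DESeq2 and in limma-voom for both comparisons. In lining the 3 libraries lay below all 3 BMDM libraries for 21 of the 28 genes (33.9% of all tested genes), and in interstitial for 27 (33.8%), Insig2 being the exception. Both comparisons use the same BMDM libraries, so their likeness is not independent. The 13 genes lower in both were Acat2, Hmgcs1, Mvd, Idi1, Fdft1, Sqle, Lss, Cyp51, Msmo1, Sc5d, Stard4, Acaca and Fasn.

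Beside these differences, cell cycle, stress and other-cell markers moved too. All 8 cell cycle markers were lower in both sorted groups, with summed levels of 252 to 461 CPM in lining, 254 to 464 CPM in interstitial and 3485 to 3653 CPM in BMDM. All 9 dissociation-response genes were higher, summing to 5551 to 8947 CPM in lining, 5088 to 9676 CPM in interstitial and 413 to 446 CPM in BMDM. All 5 fibroblast markers were higher, at 109 to 138 CPM in lining, 124 to 210 CPM in interstitial and 1.51 to 2.31 CPM in BMDM. The part of proliferation, dissociation or other cells in the results against BMDM was not tested.

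**Figure D2:**
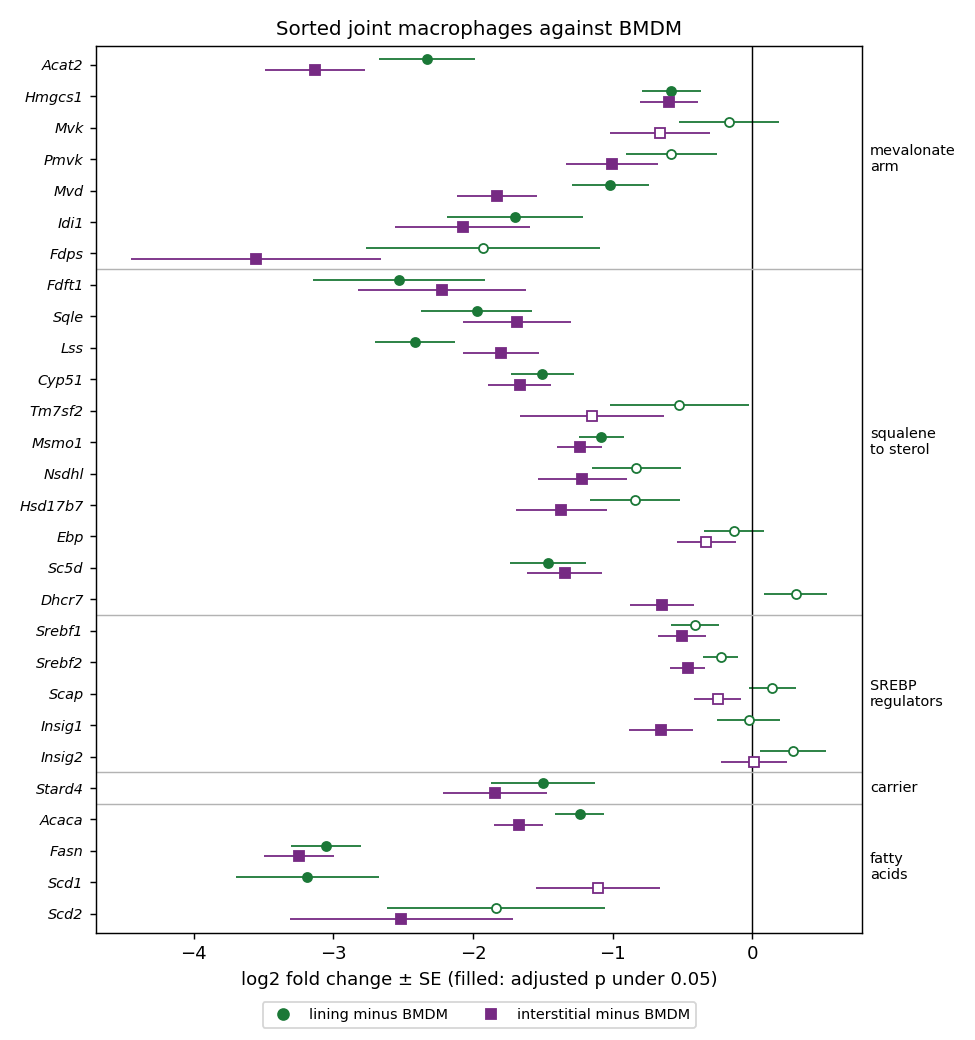
Log2 fold changes of the 28 genes, lining minus BMDM (green) and interstitial minus BMDM (purple), with bars of 1 SE; filled symbols passed the adjusted threshold of 0.05. Nearly all symbols lie left of 0, with Fasn near -3 in both sorted groups and the regulators between -0.65 and 0.29.

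In the mevalonate arm 4 of 7 genes were lower in lining and 6 of 7 in interstitial. Of all tested genes 20.5% and 21.3% were lower, and the median log2 fold changes of the arm were -1.02 and -1.83. Acat2, on chromosome 17 (12942890 to 12960747, GRCm38), encodes the cytosolic thiolase that joins acetyl-CoA units at the start of the pathway. It had 10.7, 5.63 and 12.8 CPM in lining, 7.98, 3.91 and 5.10 CPM in interstitial and 45.1, 45.7 and 48.8 CPM in BMDM. Every sorted library lay far below every BMDM library, and Acat2 fell 5.03-fold in lining (log2 fold change -2.33 ± 0.34 SE, edgeR adjusted p = 1.88e-04) and 8.74-fold in interstitial (-3.13 ± 0.36, adjusted p = 2.30e-05). Mvd, the decarboxylase that yields isopentenyl pyrophosphate, had 29.6, 21.3 and 20.6 CPM in lining, 12.0, 9.28 and 19.3 CPM in interstitial and 44.2, 47.6 and 51.4 CPM in BMDM. The 3 groups of Mvd did not overlap, and its log2 fold changes were -1.02 ± 0.28 in lining (adjusted p = 0.0109) and -1.83 ± 0.29 in interstitial (adjusted p = 2.76e-04).

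Hmgcs1, the cytosolic synthase that makes HMG-CoA and the gene whose window held the sterol element, had the smallest log2 fold changes of the 13 genes lower in both groups. It had 65.5, 56.6 and 72.1 CPM in lining, 41.2, 67.2 and 80.5 CPM in interstitial and 96.0, 100 and 92.9 CPM in BMDM. Its log2 fold changes were -0.58 ± 0.21 in lining (edgeR adjusted p = 0.0432) and -0.60 ± 0.21 in interstitial (adjusted p = 0.0355), and these calls were lost without any of A, B, E, G, H or I in lining and without any of E, G, H or I in interstitial. They were also lost without B and E together, in lining after thinning all libraries to equal depth, and in interstitial with the 2 groups fitted alone. Of the 101-base windows of Hmgcs1 10.8% also occur in Gm48342. Idi1, the isomerase of the same branch, had 7.76, 4.29 and 4.88 CPM in lining, 4.43, 6.37 and 1.49 CPM in interstitial and 18.4, 16.8 and 18.03 CPM in BMDM. Both sorted groups of Idi1 lay below BMDM, with log2 fold changes of -1.70 ± 0.48 in lining (adjusted p = 0.0137, lost without B or G) and -2.08 ± 0.48 in interstitial (adjusted p = 0.00414, and -2.72 without E). Of its 101-base windows 27.6% also occur in other genes, among them Gm13502, so its level is uncertain.

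Pmvk, the second kinase of the arm, had 19.5, 16.3 and 8.28 CPM in interstitial and 27.2, 28.7 and 31.5 CPM in BMDM, and fell in interstitial (log2 fold change -1.01 ± 0.33, edgeR adjusted p = 0.0271, lost without F, G, H or I, without B and E together and after thinning). In lining it stood at 22.8, 22.9 and 12.4 CPM and was not called (-0.58 ± 0.33, adjusted p = 0.176). Mvk, the kinase before it, was not called in either group, with 10.7, 18.2 and 25.2 CPM in lining, 10.6, 9.10 and 18.9 CPM in interstitial and 19.6, 22.4 and 19.1 CPM in BMDM. Its lining and BMDM libraries overlapped, while its interstitial libraries lay just below BMDM. Fdps, the farnesyl pyrophosphate synthase, had counts of 9, 16 and 14 in lining, 0, 27 and 0 in interstitial, and 310, 273 and 275 in BMDM. It fell in interstitial (-3.55 ± 0.89, adjusted p = 0.00657), where all reads came from library E; without E its level was at least 30.7-fold lower than in BMDM, taking 3 counts over D and F together as the floor. Of the 101-base windows of Fdps 72.4% also occur in Gm3571 or Gm43738, and 26.7% of its exon bases overlap Gm43738, so its values depend on how such reads were placed.

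From squalene synthesis to cholesterol, 6 of 11 genes were lower in lining and 9 of 11 in interstitial. Of all tested genes 20.5% and 21.3% were lower, and the median log2 fold changes of the 11 genes were -1.08 and -1.34. Lss, on chromosome 10 (76531588 to 76557138), closes squalene epoxide into lanosterol. It had 24.2, 19.2 and 8.26 CPM in lining, 25.3, 25.1 and 28.7 CPM in interstitial and 90.9, 92.3 and 92.3 CPM in BMDM. Lining lay below interstitial and interstitial below BMDM, and the tests against BMDM gave log2 fold changes of -2.41 ± 0.29 in lining (edgeR adjusted p = 3.21e-05) and -1.80 ± 0.27 in interstitial (adjusted p = 2.18e-04). Cyp51, which demethylates lanosterol, had 36.4, 30.7 and 46.2 CPM in lining, 28.4, 26.7 and 45.2 CPM in interstitial and 101, 114 and 103 CPM in BMDM. Its log2 fold changes were -1.505 ± 0.23 in lining (edgeR adjusted p = 2.13e-04) and -1.67 ± 0.23 in interstitial (adjusted p = 8.96e-05), with like levels in the sorted groups.

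Msmo1, the methylsterol oxidase that acts after Cyp51, had 72.3, 49.3 and 60.4 CPM in lining, 48.8, 57.8 and 54.6 CPM in interstitial and 125, 132 and 125 CPM in BMDM. Its log2 fold changes were -1.08 ± 0.16 (edgeR adjusted p = 2.32e-04) in lining and -1.24 ± 0.16 (adjusted p = 7.51e-05) in interstitial. The sorted libraries of Msmo1 reached at most 72.3 CPM and the BMDM libraries at least 125. Sqle, the squalene epoxidase, had 47.0, 27.2 and 29.7 CPM in lining, 14.6, 44.3 and 62.4 CPM in interstitial and 128, 142 and 130 CPM in BMDM. It was lower in both groups (-1.97 ± 0.40 in lining, adjusted p = 0.00242; -1.68 ± 0.38 in interstitial, adjusted p = 0.00479), and its interstitial libraries differed over 4-fold among themselves, D being the lowest. Sc5d, a sterol desaturase late in the pathway, was lower in both (-1.46 ± 0.27 in lining, adjusted p = 0.00109; -1.34 ± 0.27 in interstitial, adjusted p = 0.00161), with 28.1, 23.0 and 35.7 CPM in lining, 21.7, 25.1 and 45.7 CPM in interstitial and 73.3, 74.5 and 88.6 CPM in BMDM.

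Fdft1, the squalene synthase that commits farnesyl pyrophosphate to sterols, had 13.1, 14.9 and 0.375 CPM in lining, 10.2, 9.74 and 17.0 CPM in interstitial and 54.8, 59.0 and 58.8 CPM in BMDM. Library C held 1 count of it, apart from the other lining libraries. Its log2 fold changes were -2.53 ± 0.62 in lining (edgeR adjusted p = 0.00775, and -3.23 without B) and -2.22 ± 0.60 in interstitial (adjusted p = 0.0126, lost without B and E together). Searched on both strands, 18.7% of the windows of Fdft1 also occur in Ctsb, while 0% of its exon bases overlap another gene on the same strand. Nsdhl and Hsd17b7, which act with Msmo1 in removing methyl groups from the ring, were called lower in interstitial only (-1.22 ± 0.32, adjusted p = 0.00832, and -1.37 ± 0.33, adjusted p = 0.00476). In lining they gave -0.83 ± 0.32 (adjusted p = 0.0522) and -0.84 ± 0.32 (adjusted p = 0.0511). Lining and interstitial were not shown to differ in either gene, since the direct tests gave adjusted p = 0.575 for Nsdhl and 0.433 for Hsd17b7. Ebp, a sterol isomerase, was called in neither group, with 70.8, 50.1 and 40.9 CPM in lining, 36.4, 52.8 and 49.5 CPM in interstitial and 57.4, 60.6 and 58.0 CPM in BMDM. Tm7sf2, a sterol reductase, was also not called (-0.52 ± 0.50 in lining, -1.15 ± 0.51 in interstitial) at 2.82 to 8.30 CPM in all libraries, and 15.3% of its exon bases overlap Vps51.

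Dhcr7, on chromosome 7 (143823145 to 143848410), encodes the reductase that finishes cholesterol from its dehydro precursor, and was the enzyme among the 28 genes with a mean in lining above that in BMDM. It had 84.9, 63.8 and 43.9 CPM in lining, 26.2, 34.1 and 37.6 CPM in interstitial and 51.2, 50.4 and 53.1 CPM in BMDM. Lining libraries lay on either side of BMDM and above all interstitial libraries. Against BMDM the log2 fold change was 0.31 ± 0.23 in lining (not called, edgeR adjusted p = 0.293) and -0.65 ± 0.23 in interstitial (adjusted p = 0.0365, lost without D, E, G, H or I and without B and E together).

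Of the regulators 0 of 5 were called in lining and 3 of 5 were lower in interstitial. Their median log2 fold changes were -0.03 and -0.46. Of all tested genes 20.5% were lower in lining and 21.3% in interstitial. With only 5 genes, the count of 0 does not by itself set the regulators apart in lining. In lining 1 of the 5 passed an unadjusted p under 0.05 in edgeR, 0 were called by DESeq2 and 1 by limma-voom. Srebf2, on chromosome 15 (82147266 to 82205376), encodes the SREBP that mainly drives sterol genes. It had 219, 193 and 183 CPM in lining, 178, 156 and 171 CPM in interstitial and 223, 249 and 224 CPM in BMDM. Interstitial was lowest, lining in between and BMDM highest, with no overlap, and the log2 fold change against BMDM was -0.23 ± 0.12 in lining (edgeR adjusted p = 0.164) and -0.46 ± 0.12 in interstitial (adjusted p = 0.00954, lost without H and after thinning). Srebf1, whose products favour fatty acid genes, had 93.1, 95.4 and 95.7 CPM in lining, 67.8, 85.3 and 113 CPM in interstitial and 124, 117 and 137 CPM in BMDM. It gave -0.41 ± 0.17 in lining (adjusted p = 0.0747) and -0.50 ± 0.17 in interstitial (adjusted p = 0.0325, lost without D, E, G, H or I, without B and E together, after thinning and with the 2 groups fitted alone).

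Insig1, itself a known SREBP target as well as the protein that retains SCAP, had 75.7, 121 and 93.5 CPM in lining, 40.3, 74.1 and 72.9 CPM in interstitial and 92.5, 104 and 101 CPM in BMDM. Lining spread around the BMDM level (log2 fold change -0.03 ± 0.23, edgeR adjusted p = 0.936), and interstitial was below it (-0.65 ± 0.23, adjusted p = 0.0350, lost without D, G, H or I, after thinning and with the 2 groups fitted alone). Its paralog Insig2 had 50.4, 31.1 and 31.2 CPM in lining, 35.0, 24.9 and 32.9 CPM in interstitial and 29.6, 30.4 and 31.3 CPM in BMDM, with overlap throughout. Scap had 91.2, 95.2 and 66.1 CPM in lining, 73.1, 60.9 and 59.7 CPM in interstitial and 73.8, 79.3 and 76.0 CPM in BMDM and was called in neither group. Per kilobase, Insig1 exceeded Insig2 in every library, 1.68 to 4.37-fold in lining, 1.29 to 3.34-fold in interstitial and 3.51 to 3.85-fold in BMDM.

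Stard4, a cytosolic protein that moves sterol between membranes, had 12.1, 26.8 and 55.9 CPM in lining, 22.2, 26.8 and 25.3 CPM in interstitial and 84.9, 91.3 and 92.4 CPM in BMDM. All sorted libraries lay below BMDM, with C the nearest. Its log2 fold changes were -1.497 ± 0.37 in lining (edgeR adjusted p = 0.00688, -2.13 without C, and the call was lost without B and E together) and -1.84 ± 0.37 in interstitial (adjusted p = 0.00193).

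Of the fatty acid genes 3 of 4 were lower in lining and 3 of 4 in interstitial. Of all tested genes 20.5% and 21.3% were lower, and the median log2 fold changes of the 4 genes were -2.44 and -2.09. Fasn, on chromosome 11 (120805846 to 120824547), encodes the synthase that builds palmitate and gave the smallest adjusted p of the 28 genes in both comparisons. It had 33.5, 53.3 and 45.1 CPM in lining, 23.5, 38.5 and 53.1 CPM in interstitial and 360, 369 and 383 CPM in BMDM. The highest sorted library reached 53.3 CPM, and Fasn fell 8.30-fold in lining (log2 fold change -3.05 ± 0.25, edgeR adjusted p = 1.42e-06) and 9.49-fold in interstitial (-3.25 ± 0.25, adjusted p = 8.95e-07). Acaca, the carboxylase that supplies its malonyl-CoA, had 32.5, 27.6 and 28.9 CPM in lining, 24.4, 21.2 and 20.2 CPM in interstitial and 67.3, 67.9 and 73.1 CPM in BMDM. It fell 2.35-fold in lining (-1.23 ± 0.18, adjusted p = 1.39e-04) and 3.19-fold in interstitial (-1.67 ± 0.18, adjusted p = 1.22e-05).

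Fasn stood at different ratios to its neighbours in the pathway across groups. Per kilobase, Fasn over Acaca was 1.61 to 3.01 in lining, 1.503 to 4.10 in interstitial and 8.16 to 8.48 in BMDM. Fasn over Srebf1, the regulator that mainly drives it, was 0.185 to 0.287 in lining, 0.178 to 0.243 in interstitial and 1.44 to 1.63 in BMDM. Neither ratio overlapped between a sorted group and BMDM. These ratios restate levels given above, and no test was made of them.

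The stearoyl-CoA desaturases Scd1 and Scd2, neighbours on chromosome 19 (44394451 to 44407709 and 44293676 to 44306864), put the double bond into newly made fatty acids and differed from each other across groups. Scd1 had 0.970, 4.49 and 4.51 CPM in lining, 7.54, 17.8 and 19.5 CPM in interstitial and 26.7, 22.8 and 49.98 CPM in BMDM. The 3 groups did not overlap. Scd1 fell in lining against BMDM (log2 fold change -3.19 ± 0.51, edgeR adjusted p = 3.56e-04) and was not called in interstitial (-1.11 ± 0.44, adjusted p = 0.0600). Scd2 had 76.1, 99.2 and 158 CPM in lining, 26.2, 19.9 and 161 CPM in interstitial and 334, 369 and 486 CPM in BMDM. Library F stood apart from D and E and at the level of lining library C. Scd2 gave -1.83 ± 0.78 in lining (not called, adjusted p = 0.0995) and fell in interstitial (-2.51 ± 0.80, adjusted p = 0.0385, lost without G, H or I, without B and E together and without the filter on low counts, and -4.17 with adjusted p = 4.11e-06 without F).

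Per kilobase, Scd2 over Scd1 was 69.6, 19.6 and 31.1 in lining, 3.08, 0.991 and 7.31 in interstitial and 11.1, 14.4 and 8.63 in BMDM. Lining lay above both other groups, and interstitial below both, in every library; the lining value of 69.6 rests on 2 counts of Scd1 in library A. Adipocytes and Schwann cells are known to express these desaturases, so their markers are given here. The 7 adipocyte markers summed to 0.485 to 1.53 CPM in lining, 0 to 0.425 CPM in interstitial and 0 to 0.0865 CPM in BMDM, and Adipoq was at 0 in every interstitial and BMDM library. Sox10, a defining Schwann cell gene, was at 0 in 7 of the 9 libraries, and the 5 Schwann markers summed to 681 to 1050 CPM in lining, 681 to 1133 CPM in interstitial and 383 to 479 CPM in BMDM, nearly all of it Pmp22. The part of Schwann cell RNA in Scd2 was not tested.

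**Figure D3:**
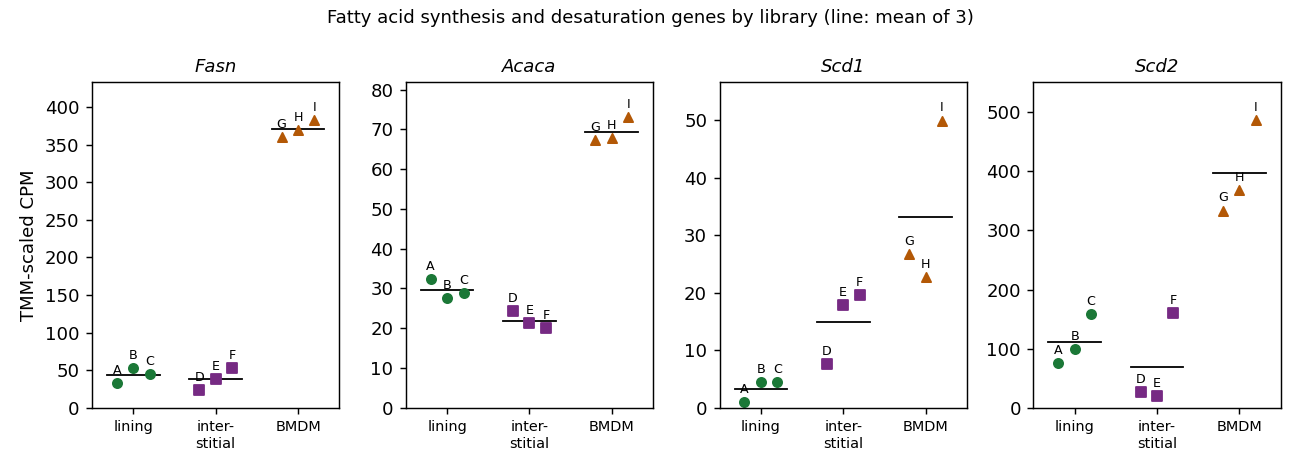
Levels of Fasn, Acaca, Scd1 and Scd2 in TMM-scaled CPM for each library, lettered A to I, with a line at the mean of each group and axes from 0. Fasn is at 360 to 383 CPM in BMDM and at most 53.3 CPM in the sorted libraries, Scd1 is lowest in lining and highest in BMDM, and library F stands apart in Scd2.

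Lining and interstitial macrophages shared the tissue, strain and sort, apart from the GFP gate. Few of these genes were called between them, as was so over all tested genes. Of the 28 genes 1 was higher in lining, where 3.74% of all tested genes were higher, and 1 was lower, where 2.05% were lower. The median log2 fold change was 0.36 over the 28 genes and -0.01 over all genes, and 23 were positive and 5 negative (Fdft1, Sqle, Lss, Sc5d and Scd1). In 5 genes all lining libraries lay above all interstitial libraries (9.92% of all tested genes), namely Mvd, Dhcr7, Srebf2, Insig1 and Acaca, and in 2, Lss and Scd1, below them (8.66%).

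Dhcr7 was the gene that rose in lining, 1.94-fold (log2 fold change 0.96 ± 0.23, edgeR adjusted p = 0.0334), on the levels given above. Leaving out any library other than C or F ended the call, with adjusted p up to 0.127. Scd1 was the gene that fell, 4.22-fold (-2.08 ± 0.51, adjusted p = 0.0343), and that call was lost without any of A, B, C, E, F or G, with adjusted p up to 0.106. Both calls were also lost without B and E together, and that of Scd1 after thinning and with limma-voom. With these 2 groups fitted alone 0 of the 28 genes were called in either direction. In the main fit the spread of each gene was estimated over all 9 libraries, BMDM included. The median coefficient of variation was 4.43% in BMDM, 31.2% in lining and 30.7% in interstitial. The part of the BMDM spread in these calls was not tested.

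Several uncalled genes are given for their values. Insig1 gave a log2 fold change of 0.63 ± 0.23 (edgeR adjusted p = 0.158), Mvd 0.81 ± 0.29 (adjusted p = 0.144), Acaca 0.44 ± 0.18 (adjusted p = 0.210), Srebf2 0.24 ± 0.13 (adjusted p = 0.334) and Lss -0.61 ± 0.29 (adjusted p = 0.270). Acat2 gave 0.80 ± 0.37 (adjusted p = 0.271), with lining library B inside the interstitial range. Scd2 gave 0.68 ± 0.78 (adjusted p = 0.707), and 2.28 with adjusted p = 0.00159 without library F. Fdps gave 1.62 ± 0.93 (adjusted p = 0.378); without library E no interstitial read was left, and lining was at least 8.63-fold higher by the same floor, with adjusted p = 0.0325. By role, the mevalonate arm had all 7 log2 fold changes above 0 (median 0.50) and the regulators all 5 (median 0.28). The squalene-to-cholesterol steps had 7 of 11 (median 0.16) and the fatty acid genes 3 of 4 (median 0.32). Hmgcs1 gave 0.02 ± 0.22 and turned negative with RLE scaling, DESeq2 or limma-voom. Idi1 turned negative with a library left out, and Srebf1 with a library left out and after thinning. Of the mevalonate genes 0 were called by edgeR, DESeq2 or limma-voom; at an unadjusted p under 0.05 in edgeR, 1 was higher and 0 were lower.

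The interstitial libraries differed among themselves across the list. Library D had the lowest summed level in the mevalonate, squalene-to-cholesterol, regulator and fatty acid groups, and library F the highest in all 4. For the squalene-to-cholesterol group the sums were 406, 322 and 335 CPM in lining A, B and C and 243, 313 and 375 CPM in interstitial D, E and F. The sums of the cell cycle markers were in the same order, at 254, 318 and 464 CPM in D, E and F. In lining A, B and C they were 252, 385 and 461 CPM. Mki67, Top2a, Ccnb1, Ccna2 and Cdk1 each followed that order in D, E and F. Mcm2 (28.8, 16.1 and 15.3 CPM) and Mcm5 (31.9, 24.5 and 20.6 CPM) ran the other way. Pcna had 105, 92.1 and 100 CPM, highest in D. Of the 8 cell cycle and 9 dissociation markers 0 were called between lining and interstitial, and 0 passed at an unadjusted p under 0.05 in edgeR or were called by DESeq2 or limma-voom. The endothelial markers summed to 3.75 to 12.4 CPM in lining and 25.7 to 41.4 CPM in interstitial, and the 4 dendritic markers to 1.45 to 29.1 CPM in lining and 25.3 to 59.5 CPM in interstitial. The part of other cells in these differences was not tested.

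**Figure D4:**
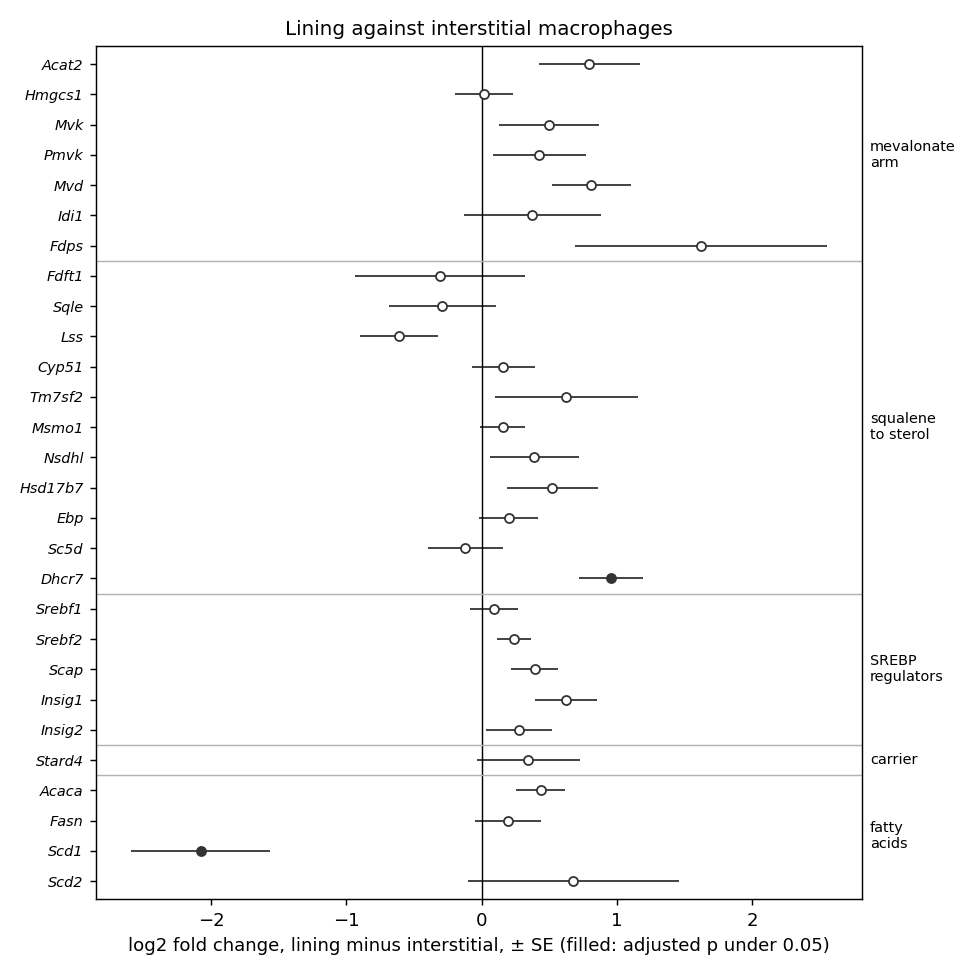
Log2 fold changes of the 28 genes, lining minus interstitial, with bars of 1 SE, ordered by role; filled symbols passed the adjusted threshold of 0.05. Most symbols lie right of 0, and Dhcr7 (0.96) and Scd1 (-2.08) are the filled ones.

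Lists of related genes were read in the same fit, and their counts stand beside the shares of all tested genes. Against BMDM these shares were 23.1% higher and 20.5% lower in lining, and 23.4% higher and 21.3% lower in interstitial. Between lining and interstitial they were 3.74% higher and 2.05% lower. Of 16 genes that supply, lengthen and desaturate fatty acids, 11 were lower in lining against BMDM and 10 in interstitial, and 0 were higher in either comparison by edgeR at an unadjusted p under 0.05, DESeq2 or limma-voom; the medians were -0.62 and -0.69. Fads2, which makes polyunsaturated fatty acids, had 2.91, 0.573 and 0.375 CPM in lining, 0, 0.0910 and 1.70 CPM in interstitial and 82.8, 86.8 and 91.1 CPM in BMDM. Its fitted log2 fold changes were -6.52 ± 0.66 in lining (edgeR adjusted p = 1.30e-05; -5.88 to -7.37 with a library left out) and -7.30 ± 0.69 in interstitial (adjusted p = 6.78e-06; -6.30 to -10.01). In interstitial 8 of its 9 counts were in F, and lining held 13 counts in all, against 5638 in BMDM. With so few counts in the sorted libraries, the size of the fold change is uncertain. Me1, the malic enzyme that makes NADPH for lipid synthesis, had 0.970, 1.53 and 1.88 CPM in lining, 0, 1.001 and 1.06 CPM in interstitial and 27.1, 25.8 and 25.6 CPM in BMDM, with log2 fold changes of -4.12 ± 0.50 (adjusted p = 3.88e-05) and -4.95 ± 0.52 (adjusted p = 1.13e-05). Elovl6, which lengthens palmitate, averaged 5.24 ± 1.68 CPM in lining, 8.77 ± 3.59 CPM in interstitial and 31.3 ± 0.569 CPM in BMDM (SD, n = 3 each) and was lower in both (-2.51 ± 0.37 and -1.86 ± 0.35, adjusted p = 1.84e-04 and 0.00111).

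Between lining and interstitial, 1 of these 16 was higher and 1 lower, where 3.74% and 2.05% of all tested genes were. Slc25a1, the mitochondrial citrate exporter that feeds lipid synthesis, had 71.3, 60.5 and 48.4 CPM in lining and 24.8, 34.8 and 38.2 CPM in interstitial (log2 fold change 0.86 ± 0.20, edgeR adjusted p = 0.0257). Elovl5, an elongase of polyunsaturated fatty acids, had 60.1, 60.5 and 74.3 CPM in lining and 90.9, 108 and 105 CPM in interstitial (-0.64 ± 0.15, adjusted p = 0.0226). Neither gene overlapped between the groups. Both calls were lost without any of A, B, E, G, H or I, without B and E together and with the 2 groups fitted alone.

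Of 16 genes for SREBP processing, sterol sensing and cofactors, 6 were higher and 3 lower in lining against BMDM, and 4 were higher and 3 lower in interstitial, with medians of 0.07 and 0.00. Over all tested genes the shares were 23.1% higher and 20.5% lower in lining, and 23.4% higher and 21.3% lower in interstitial. Mylip, the ubiquitin ligase induced by liver X receptors, averaged 105 ± 24.2 CPM in lining, 83.02 ± 7.31 CPM in interstitial and 28.9 ± 2.55 CPM in BMDM (log2 fold changes 1.86 ± 0.18 and 1.52 ± 0.18, edgeR adjusted p = 7.22e-06 and 3.60e-05). Nr1h2, the beta liver X receptor, was higher in both sorted groups (0.98 ± 0.17 and 0.82 ± 0.17, adjusted p = 5.31e-04 and 0.00163). Pgrmc1, a haem-binding membrane protein that associates with sterol enzymes, averaged 71.1 ± 9.99 CPM in lining, 90.5 ± 6.19 CPM in interstitial and 38.7 ± 4.03 CPM in BMDM and was higher in both (0.87 ± 0.16 and 1.22 ± 0.16, adjusted p = 0.00113 and 7.97e-05). Lower in both were Tmem97, a sterol-responsive membrane protein (-1.48 ± 0.35 and -1.23 ± 0.35, adjusted p = 0.00509 and 0.0128; -1.84 in interstitial without D, and that call was lost without B and E together), Erlin1, which helps retain SREBP complexes (-1.20 ± 0.16 and -0.79 ± 0.16, adjusted p = 9.08e-05 and 0.00156), and Nfya, a subunit of NF-Y (-0.64 ± 0.13 and -0.97 ± 0.13, adjusted p = 0.00219 and 1.06e-04).

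Nr1h3, the alpha liver X receptor that induces Srebf1 and sterol efflux genes, had 22.3, 21.5 and 17.6 CPM in lining, 8.42, 7.64 and 2.97 CPM in interstitial and 9.69, 8.35 and 9.64 CPM in BMDM. Lining lay above both other groups, with a log2 fold change of 1.71 ± 0.40 against interstitial (edgeR adjusted p = 0.0276) and 1.1504 ± 0.38 against BMDM (adjusted p = 0.0271). The first call was lost after thinning and with the 2 groups fitted alone, and the second without the filter. Both were lost without B and E together. The first did not survive the loss of A, B, E or any BMDM library, nor the second the loss of A, B or any BMDM library. Of the 16 genes 1 was higher between lining and interstitial, this one, and 0 were lower by edgeR, DESeq2 or limma-voom. At an unadjusted p under 0.05 in edgeR 1 was lower. Of all tested genes 3.74% were higher and 2.05% lower in this comparison.

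The isoprenoid branch, which takes farnesyl pyrophosphate to dolichol, ubiquinone and prenylated proteins, was read as a further list. Of 12 genes 1 was lower in lining against BMDM, where 20.5% of all tested genes were lower. At an unadjusted p under 0.05 in edgeR 2 were lower, with 2 by DESeq2 and 4 by limma-voom. In none of these was a gene higher in lining, where 23.1% of all tested genes were higher. In interstitial 1 was higher and 2 lower, where 23.4% and 21.3% of all tested genes were. Pdss1, a subunit of the synthase for the ubiquinone side chain, averaged 3.56 ± 0.510 CPM in lining, 3.45 ± 1.07 CPM in interstitial and 9.83 ± 0.787 CPM in BMDM (log2 fold changes -1.48 ± 0.46 and -1.46 ± 0.45, edgeR adjusted p = 0.0218 and 0.0198, both lost without G, H or I, and that of lining after thinning). In interstitial Fnta, the alpha subunit shared by protein prenyltransferases, was higher (0.58 ± 0.21, adjusted p = 0.0381, lost without A, B, C, D, G, H or I, without the filter and with the 2 groups fitted alone) and Zmpste24, a protease that trims prenylated proteins, lower (-0.85 ± 0.26, adjusted p = 0.0200, lost without H, without B and E together and with the 2 groups fitted alone). Between lining and interstitial 0 of the 12 were called, where 3.74% of all tested genes were higher and 2.05% lower. In that comparison 0 passed an unadjusted p under 0.05 in edgeR or were called by DESeq2 or limma-voom.

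Of 12 tested genes of 13 listed for sterol transfer, esterification and oxidation, 4 were higher and 4 lower in lining against BMDM, and 2 higher and 4 lower in interstitial. Cyp27a1, which oxidises cholesterol to an oxysterol that activates liver X receptors, had 40.7, 73.8 and 65.0 CPM in lining, 131, 100 and 89.6 CPM in interstitial and 5.84, 7.75 and 7.47 CPM in BMDM. It was higher in both sorted groups (log2 fold changes 3.11 ± 0.25 and 3.92 ± 0.26, edgeR adjusted p = 1.28e-06 and 2.30e-07). Nceh1, which releases cholesterol from its esters, had 113, 151 and 127 CPM in lining, 93.1, 123 and 59.7 CPM in interstitial and 374, 387 and 355 CPM in BMDM (-1.51 ± 0.22 and -2.01 ± 0.22, adjusted p = 1.63e-04 and 1.72e-05). Soat1, which esterifies cholesterol, averaged 106 ± 7.60 CPM in lining, 80.0 ± 14.2 CPM in interstitial and 263 ± 5.17 CPM in BMDM (-1.31 ± 0.14 and -1.71 ± 0.14, adjusted p = 1.61e-05 and 1.84e-06). Also lower in both was Gramd1b, a sterol transfer protein (-1.36 ± 0.14 and -1.74 ± 0.14, adjusted p = 1.02e-05 and 1.39e-06); its relative Gramd1a was higher in lining (0.90 ± 0.22, adjusted p = 0.00610) and not called in interstitial (0.23 ± 0.22, adjusted p = 0.434). Osbpl9, an oxysterol-binding relative, was higher in both (0.49 ± 0.14 and 0.77 ± 0.14, adjusted p = 0.0121 and 6.93e-04).

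Between lining and interstitial, 1 of these 12 was higher (Ch25h) and 1 lower (Lbr). Of all tested genes 3.74% were higher and 2.05% lower. Ch25h, which makes an oxysterol that blocks SREBP transport, had 43.2, 39.0 and 65.3 CPM in lining, 8.87, 5.82 and 27.0 CPM in interstitial and 14.0, 14.95 and 13.9 CPM in BMDM. It was higher in lining than in interstitial (log2 fold change 1.82 ± 0.47, edgeR adjusted p = 0.0421, and 2.79 without F) and than in BMDM (1.78 ± 0.45, adjusted p = 0.00724). Leaving out any library other than F ended the call against interstitial. That call was also lost in a non-robust fit, without B and E together and with the 2 groups fitted alone. Lbr, the nuclear membrane protein that is also a sterol reductase, had 32.0, 42.2 and 42.4 CPM in lining, 85.1, 72.7 and 53.9 CPM in interstitial and 110, 113 and 115 CPM in BMDM. It was lower in lining than in interstitial (-0.84 ± 0.19, edgeR adjusted p = 0.0226) and than in BMDM (-1.52 ± 0.19, adjusted p = 4.71e-05). The call against interstitial was lost without A, B or E, without B and E together and with the 2 groups fitted alone. Lbr was also lower in interstitial than in BMDM (-0.68 ± 0.18, edgeR adjusted p = 0.00933).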

How the data were processed

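RNA of 9 libraries in 3 groups was counted per gene. The authors deposited raw read counts, not normalised. Per the file headers, featureCounts 1.6.1 counted reverse-stranded reads over exons of Ensembl GRCm38.91 genes, with no option for multi-mapping reads, so reads shared between gene copies are lost or unevenly placed. Per the submitters' processing notes, which give no role or order, the tools were STAR 2.5.4a, cutadapt 1.15, bcl2fastq 2.17.1.14, R 3.5.0 and DESeq2 1.20.0.

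For the values given here, edgeR 4.0.16 ran in R 4.3.3. Genes passed filterByExpr (minimum count 10, minimum total 15), libraries were TMM-scaled, and the 9 libraries were fitted together by robust quasi-likelihood with 1 mean for each group, leaving 6 residual degrees of freedom. Each of the 3 contrasts had a 2-sided test, adjusted by Benjamini-Hochberg across 12610 genes. The script was tested on simulated counts. SE is the absolute log2 fold change divided by the square root of the quasi-likelihood F statistic. It was worked back from the test and not estimated apart from it. Alternatives were RLE scaling, no filter, a non-robust fit, the 2 groups compared alone, thinning to 2194920 counts, leaving out B and E together, DESeq2 1.42.0, limma-voom (limma 3.58.1) and each library left out. Shared sequence was counted as exact 101-base windows of the longest coding transcript found in other genes, on either strand.

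The 28 genes and all lists were chosen with earlier results of these data known. Of the other lists, up to 3 called genes in each direction with the largest log2 fold change are named per list and comparison. Promoters followed the smallest larger adjusted p among genes called against BMDM in both sorted groups.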

Additional observations from a re-analysis of the deposited data

How the results depend on the processing

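No paired analysis was made, because the titles carry the letters A to I, which no 2 groups share. The labels do not say whether lining and interstitial libraries came from the same mice. If they did, the unpaired test may have missed differences between these groups. Against BMDM the counts of lower genes stayed within 1.5 times under every alternative run, at 12 to 19 of 28 for lining and 15 to 24 for interstitial, and 0 were higher in each. Between lining and interstitial, 0 were higher and 0 lower with the 2 groups fitted alone, and 0 were lower after thinning to equal depth, without B and E, and with limma-voom; leaving out a library gave 0 to 3 higher and 0 to 1 lower. The cause was not tested. No called value changed sign. Signs turned only in uncalled genes. For lining minus interstitial these were Hmgcs1 (-0.00293 with RLE scaling, -0.00482 with DESeq2, -0.0985 with limma-voom), Msmo1 (-0.00488 with limma-voom), Cyp51 (-0.037) and Srebf1 (-0.00324) after thinning, and Tm7sf2 (-0.17) and Fasn (-0.00408) without B and E. For lining minus BMDM they were Mvk (0.072) and Ebp (0.0028) after thinning and Insig1 (0.063) with limma-voom, and for interstitial minus BMDM Insig2 (-0.10 without the filter and -0.10 with limma-voom). With a library left out, log2 fold changes of lining minus interstitial ranged from -0.22 to 0.18 for Hmgcs1, -0.0838 to 1.005 for Idi1, -0.98 to 0.21 for Fdft1, -0.68 to 0.058 for Sqle, -0.00721 to 0.42 for Cyp51, -0.022 to 0.91 for Tm7sf2, -0.16 to 0.60 for Nsdhl, -0.037 to 0.36 for Ebp, -0.31 to 0.24 for Sc5d, -0.078 to 0.27 for Srebf1, -0.27 to 0.68 for Stard4 and -0.042 to 0.45 for Fasn. Those of lining minus BMDM ranged from -0.46 to 0.037 for Mvk, -0.39 to 0.0070 for Ebp, -0.00637 to 0.27 for Scap, -0.27 to 0.082 for Insig1 and -0.00156 to 0.38 for Insig2, and that of Insig2 in interstitial from -0.12 to 0.15. Tm7sf2 in lining reached -1.20 against BMDM without B. Depth limits the sorted libraries, where genes such as Fdps, Idi1 and Scd1 rest on few counts in A, C and D.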
